A study of Mus musculus with 5 samples.

Results

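Interferon-stimulated genes were followed in single-cell RNA sequencing of mouse lung after neonatal hyperoxia. The set was a list of 37 named genes, each matched by its exact symbol among the 42454 features of the deposited tables, and all 37 were found. They were kept in 2 lists. The type I members are 27 genes induced mainly by type I interferons (Ifit1, Ifit2, Ifit3, Ifi44, Isg15, Irf7, Irf9, Stat2, Oasl2, Oas1a, Rsad2, Usp18, Ifi27l2a, Ifi35, Bst2, Mx1, Zbp1, Dhx58, Ifih1, Ddx58, Xaf1, Rtp4, Trim30a, Parp14, Sp100, Ly6e and Herc6), and the gamma-type members are 10 genes induced strongly by interferon gamma (Cxcl9, Cxcl10, Irf1, Gbp2, Gbp3, Gbp5, Gbp7, Iigp1, Irgm1 and Igtp). The division is not absolute, since several genes of each list answer to both kinds of interferon. C57BL/6J newborns were kept within hours of birth in room air or in hyperoxia (over 95% O2) for 3 days, and all then lived in room air until postnatal day 7 (pnd7) or 60 (pnd60). The 5 groups were air pnd7, hyperoxia pnd7, air pnd60 and hyperoxia pnd60, all of unsorted lung cells, and hyperoxia pnd7 cells sorted by flow cytometry for C12FDG, a dye that becomes fluorescent when cut by the lysosomal enzyme SA-β-gal. The submitters label the sorted cells as senescent. Each group was 1 library. The sorted cells came from 3 pooled mouse lungs, and the unsorted libraries came from an earlier experiment of the same laboratory, so that the effect of the sort and of the experiment cannot be told apart.

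Type I interferons (the many alpha forms and beta) are released by cells that sense viral or misplaced nucleic acid, and interferon gamma by T cells and natural killer cells. Type I interferons bind Ifnar1 and Ifnar2, the kinases Jak1 and Tyk2 then act, and a complex that holds Stat2 and Irf9 binds the interferon-stimulated response element (ISRE). Interferon gamma binds Ifngr1 and Ifngr2, and its signal reaches the gamma-activated site (GAS). Many tissues, the lung among them, also hold a low level of these transcripts without infection.

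After cells with 700 to 8000 detected genes and under 5% mitochondrial counts were kept, the libraries held 2308 air pnd7 cells with 16648251 counts, 1246 hyperoxia pnd7 cells with 13576172, 493 sorted cells with 7880365, 4397 air pnd60 cells with 14744081 and 4756 hyperoxia pnd60 cells with 16533775. The median depth ran from 2168 counts per cell at air pnd60 to 15529 in the sorted cells. Between any pair of libraries at most 7 barcodes were shared. Each count is 1 tagged mRNA molecule read at its 3′ end, so levels of different genes can be compared without scaling to length, as CPM (counts divided by the total counts and scaled to one common total). Each interval printed is a 95% interval of counting error alone, save those beside list medians. There the limits are the medians of the single members' limits, not a 95% interval of the median itself. With 1 library per group there was no spread between replicates and no test. A gene was compared where both libraries together held at least 100 counts of it, and it is called higher or lower where CPM differed by at least 2-fold. Cells were put into classes by clustering without the members and by fixed marker genes, and each class is named with "-like". In the sorted library 415 cells were alveolar macrophage-like and 46 interstitial macrophage-like. Of the former, 373 lay in cluster 12, which held 378 cells in all libraries together and was led by the stress and iron genes Hmox1, Slc7a11, Mt1, Mt2 and Gdf15.

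The members' promoters were searched for matches to the ISRE and the GAS, which only part of the members held. RefSeq promoters of GRCm38.p6, each 300 bases with 250 upstream of the start, were given for 28 of the 37 members. On either strand, GAAANNGAAA (a core of the ISRE) was found for 10 of 19 type I members with a promoter (52.6%) and for 7 of 9 gamma-type members (77.8%), against 3.99% of 27025 genes. TTCNNNGAA (the GAS) was found for 4 of 19 (21.1%) and 4 of 9 (44.4%), against 9.55%. The upstream 250 bases are printed for the 5 members on which the results turn most, 5′ to 3′ on the strand of the gene, with matches in capitals. Isg15, a ubiquitin-like protein, lies on the minus strand at chr4:156200819-156201068 and has 3 overlapping ISRE matches that begin 78, 72 and 66 bases upstream. Rsad2 (viperin, an antiviral enzyme) at chr12:26456453-26456702, minus strand, has 1 ISRE match on the reverse strand, 120 bases upstream. Cxcl10, a chemokine that attracts T cells through Cxcr3, at chr5:92348890-92349139, minus strand, has 1 ISRE match 213 bases upstream. Irf1, a transcription factor, at chr11:53769764-53770013, plus strand, has 1 GAS match 90 bases upstream. Cxcl9, another Cxcr3 ligand, at chr5:92328080-92328329, minus strand, has neither set of letters in this window.
Isg15: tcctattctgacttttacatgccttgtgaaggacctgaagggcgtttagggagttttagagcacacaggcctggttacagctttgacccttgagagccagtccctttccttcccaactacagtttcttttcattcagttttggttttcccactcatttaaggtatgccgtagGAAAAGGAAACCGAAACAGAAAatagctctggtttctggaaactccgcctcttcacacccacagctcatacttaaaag
Rsad2: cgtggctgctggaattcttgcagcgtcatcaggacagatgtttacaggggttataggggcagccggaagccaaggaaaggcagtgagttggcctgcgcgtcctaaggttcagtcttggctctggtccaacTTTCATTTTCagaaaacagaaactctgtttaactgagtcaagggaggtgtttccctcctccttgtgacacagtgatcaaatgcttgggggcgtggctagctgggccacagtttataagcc
Cxcl10: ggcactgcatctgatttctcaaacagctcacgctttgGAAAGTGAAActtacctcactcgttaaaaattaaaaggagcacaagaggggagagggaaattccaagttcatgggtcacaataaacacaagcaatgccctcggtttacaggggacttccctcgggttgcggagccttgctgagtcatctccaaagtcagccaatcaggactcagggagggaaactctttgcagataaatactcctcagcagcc
Irf1: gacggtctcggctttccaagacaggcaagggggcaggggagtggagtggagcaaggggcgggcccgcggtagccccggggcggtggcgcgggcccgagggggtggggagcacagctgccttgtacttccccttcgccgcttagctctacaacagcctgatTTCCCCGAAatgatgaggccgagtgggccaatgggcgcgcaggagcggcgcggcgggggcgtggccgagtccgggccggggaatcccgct
Cxcl9: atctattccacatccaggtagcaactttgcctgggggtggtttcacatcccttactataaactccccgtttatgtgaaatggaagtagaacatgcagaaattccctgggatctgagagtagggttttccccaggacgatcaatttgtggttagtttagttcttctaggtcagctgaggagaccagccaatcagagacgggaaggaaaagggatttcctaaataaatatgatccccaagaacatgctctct

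Ly6e, a membrane-anchored protein of the Ly6 family that restricts several viruses, was the most abundant member in every library. It stood at 316 CPM at air pnd7, 330 at hyperoxia pnd7, 137 in the sorted cells, 1630 at air pnd60 and 1626 at hyperoxia pnd60. The adult libraries were thus far above the neonatal ones, whatever the exposure, and the sorted library was lowest. Ly6e alone made up 30.6% to 53.7% of all type I counts in a library, so sums of the list follow it, and medians over genes are given beside them. Sp100, a nuclear body protein, was at 66.3, 56.6, 13.1, 330 and 328 CPM in the same order and had the same shape. Ifi27l2a, a small mitochondrial protein, was at 120, 104, 73.9, 219 and 251 CPM. Bst2 (tetherin), which holds budding virus at the cell surface, was at 70.2, 92.7, 83.6, 140 and 143 CPM and was not lower in the sorted cells than at air pnd7.

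The other type I members were rare transcripts. The transcription factors of the pathway ordered alike: Irf9 was at 24.3, 23.0, 7.61, 64.2 and 67.1 CPM, Stat2 at 12.6, 14.1, 9.14, 46.3 and 48.8, and Irf7, which amplifies type I interferon production, at 10.3, 8.62, 3.17, 28.9 and 34.1. In each the adult libraries were highest and the sorted library lowest. Isg15 was at 12.4, 18.9, 14.0, 21.9 and 24.3 CPM, so that the sorted cells fell within the neonatal range. Among the Ifit genes, which encode proteins that bind foreign RNA, Ifit1 was at 4.57, 3.98, 0.888, 12.4 and 18.6 CPM, Ifit2 at 13.7, 13.9, 0.508, 18.9 and 21.0, and Ifit3 at 4.38, 5.38, 0.888, 18.8 and 24.5. Rsad2 was at 7.15, 9.21, 1.40, 10.2 and 11.8 CPM. Among the lowest counts of the list were those of Mx1, a GTPase that blocks virus (20, 8, 5, 112 and 121 counts), and Oas1a, an enzyme that makes the activator of RNase L (13, 17, 48, 29 and 83 counts). Mx1 lacks several exons in C57BL/6 mice, and its 3′ reads do not show whether a working protein is made.

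Among the gamma-type members, Iigp1, an immunity-related GTPase, was the most abundant in the unsorted pnd7 libraries and stood apart from the rest. It was at 77.2 CPM at air pnd7, 90.7 at hyperoxia pnd7, 2.92 in the sorted cells, 41.2 at air pnd60 and 44.3 at hyperoxia pnd60, so its unsorted neonatal libraries were above the adult ones. Irf1 was at 38.1, 44.1, 52.8, 102 and 109 CPM and was higher in the adult libraries. The guanylate-binding proteins, GTPases that attack the vacuoles of microbes, had the same order between ages: Gbp7 was at 28.2, 28.9, 6.73, 77.6 and 75.2 CPM, Gbp2 at 13.03, 13.6, 14.6, 41.3 and 44.3, and Gbp5 at 1.80, 3.17, 0.508, 15.1 and 13.1. The chemokines had another pattern. Cxcl9 had 0, 1, 184, 1 and 5 counts and Cxcl10 had 25, 77, 396, 129 and 161 counts, and both were highest in the sorted library. Igtp had 0 counts in all 5 libraries, and the separate feature for a further copy of it also had 0, so its level cannot be read from this annotation. Features for further copies of Irgm1 held 8, 11, 5, 15 and 33 counts in the largest case, beside 211, 218, 33, 467 and 491 for Irgm1 itself.

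**Figure D1:**
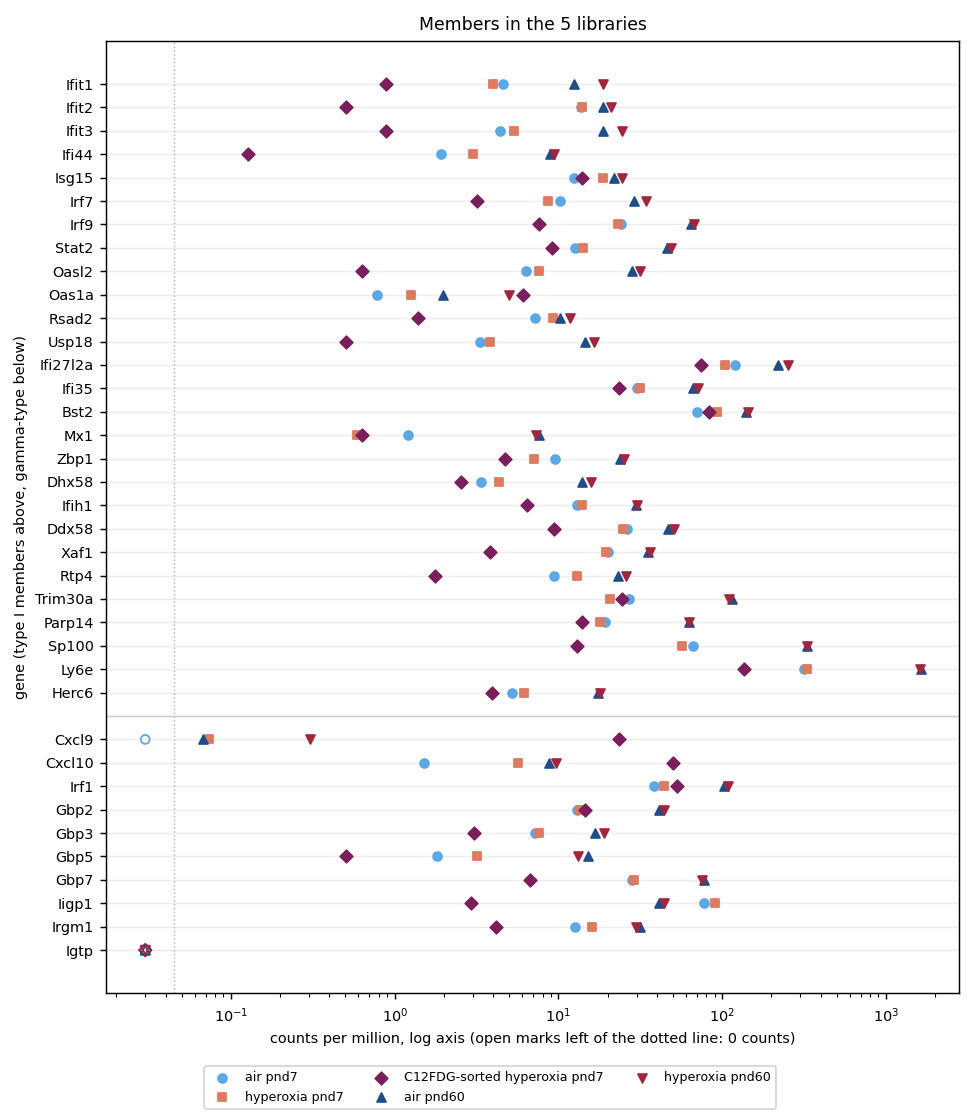
Level of each member in the 5 libraries, in CPM on a log axis, with 1 mark per library and open marks for 0 counts. Ly6e sits at 1630 and 1626 at pnd60 and between 137 and 330 at pnd7, while Cxcl9 and Cxcl10 are highest in the C12FDG-sorted cells and Iigp1 is higher in the unsorted pnd7 libraries (77.2 and 90.7) than at pnd60 (41.2 and 44.3).

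Levels differed widely between cell classes. Summed type I counts at air pnd60 ran from 875 CPM in myofibroblast, smooth muscle or pericyte-like cells to 7277 in classical monocyte-like cells, with endothelial-like cells at 5669, B cell-like cells at 5120 and nonclassical monocyte-like cells at 4750. At air pnd7 the same classes stood at the ends, from 157 CPM in the myofibroblast, smooth muscle or pericyte-like cells to 4883 in classical monocyte-like cells. Classical monocyte-like cells had the highest level of 14 of the 27 type I members at air pnd7 and of 12 at air pnd60, but only 3 and 2 of these were above the next class beyond counting error. For the gamma-type list the endothelial-like class led at pnd60, with the highest level of 5 of the 9 members that had counts (2 in air and 0 after hyperoxia beyond counting error), and with sums at 931 CPM in air and 985 after hyperoxia. At air pnd7 the highest sum was that of interstitial macrophage-like cells (419 CPM in 22 cells), followed by fibroblast-like cells (372 CPM).

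Single members departed from that order. Ly6e reached 3373 CPM in endothelial-like and 3091 in B cell-like cells at air pnd60 and only 255 in fibroblast-like cells. Bst2 was at 737 CPM in plasmacytoid dendritic cell-like cells at air pnd60, the class in which Bst2 serves as a surface marker, against 523 in endothelial-like cells. Ifi27l2a was at 1951 CPM in classical monocyte-like cells at air pnd7 and 1415 at air pnd60. Ifit2 was highest in fibroblast-like cells at air pnd7 (36.1 CPM) and air pnd60 (68.0 CPM), though not beyond counting error. In the hyperoxia libraries it was highest in type I epithelial-like cells (33.9 CPM at pnd7 and 98.5 at pnd60), also not beyond counting error. Usp18, which removes Isg15 from proteins, was at 98.2 CPM and Ifi35 at 164 CPM in ciliated-like cells at air pnd60. Iigp1 was the fibroblast gene of the set at pnd7, at 301 CPM in fibroblast-like and 169 CPM in the myofibroblast, smooth muscle or pericyte-like cells of the air library, against 33.3 CPM in endothelial-like cells. At air pnd60 Iigp1 was highest in endothelial-like cells at 180 CPM (160 to 201), though not beyond counting error. Fibroblast-like cells were at 142 CPM (123 to 163) and myofibroblast, smooth muscle or pericyte-like cells at 53.2 CPM. At hyperoxia pnd60 this last class was at 141 CPM (95.9 to 200), next to 204 CPM in endothelial-like cells.

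**Figure D2:**
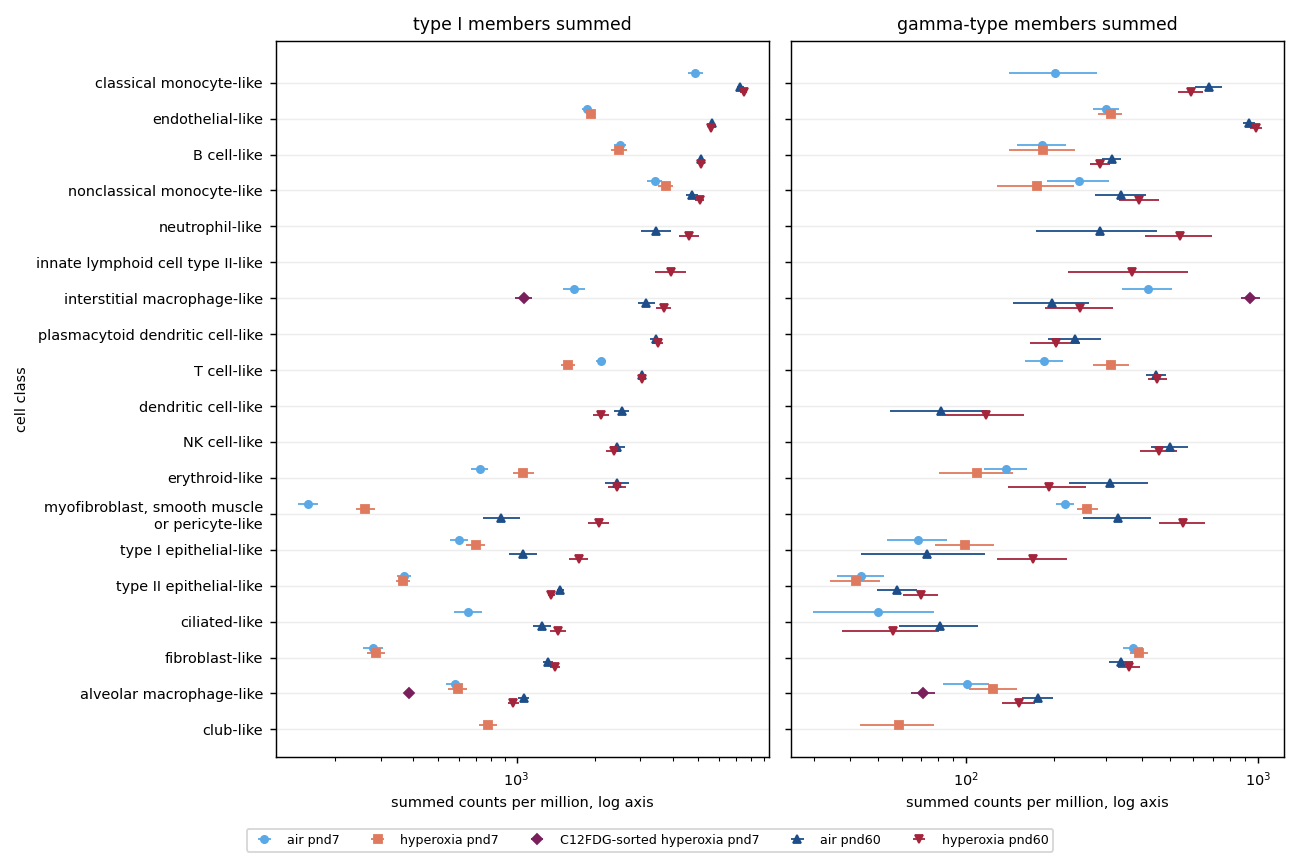
Summed type I members (left) and gamma-type members (right) in each cell class and library, in CPM on a log axis, with Poisson intervals. In air, type I sums run from 157 to 4883 at pnd7 and from 875 to 7277 at pnd60, and the alveolar macrophage-like cells of the sorted library (386) lie below those of the unsorted hyperoxia library (593).

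Between pnd7 and pnd60 in air, nearly all members were higher in the adult lung. Of the 26 type I members compared, 19 were at least 2-fold higher and 0 lower, and all 26 were above 0 beyond counting error. Over all 13003 genes compared, 15.1% were called higher and 9.35% lower. The median log2 ratio was 1.47 (1.23 to 1.80) over the type I members and 0.23 over all genes. The 8 with the largest ratios were Mx1 (2.66), Ly6e (2.37, 2.33 to 2.41, or 5.16-fold), Sp100 (2.32), Ifi44 (2.21), Oasl2 (2.17), Usp18 (2.14), Ifit3 (2.10) and Trim30a (2.09), the last a regulator of Toll-like receptor signalling. The 7 under 2-fold were Ifit2 (0.46), Rsad2 (0.52), Xaf1 (0.80), Isg15 (0.82), Ddx58 (0.84), Ifi27l2a (0.87) and Bst2 (0.999, just under the limit). With library totals rescaled to put the median of all genes at 0, 17 were called higher, against 10.3% of all genes.

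Of the 8 gamma-type members compared, 7 were called higher: Gbp5 (3.07), Cxcl10 (2.54), Gbp2 (1.66), Gbp7 (1.46), Irf1 (1.42), Irgm1 (1.32) and Gbp3 (1.22). Their median was 1.44 (1.29 to 1.59). Iigp1 was lower by less than 2-fold, at -0.90 (-1.05 to -0.76), and passed 2-fold lower only after the rescaling, which left 6 higher. The summed list was higher by only 0.90 (0.83 to 0.96), since Iigp1 was its largest part at pnd7. In these sums over a whole library, fewer cells of a type and less RNA per cell cannot be told apart. With equal weight for each cell class the medians were 0.90 for the type I and 1.07 for the gamma-type members. The hyperoxia libraries gave medians of 1.79 (1.36 to 2.03) and 1.31 (1.08 to 1.49) between the same ages, against 0.29 over all genes, with Iigp1 at -1.03.

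The same comparison was made inside cell classes, where the mix of classes does not enter. The summed type I members were higher at pnd60 in 13 of 13 classes in air, by 0.48 to 2.47 on the log2 scale, while the medians of all genes within these classes lay between 0.03 and 0.41. The 5 largest ratios were those of myofibroblast, smooth muscle or pericyte-like cells at 2.47 (157 to 875 CPM), fibroblast-like cells at 2.24 (280 to 1320), type II epithelial-like cells at 2.00 (369 to 1472), erythroid-like cells at 1.76 (723 to 2444) and endothelial-like cells at 1.60 (1864 to 5669). Below them were, among others, B cell-like cells at 1.03, ciliated-like at 0.95, type I epithelial-like at 0.82, classical monocyte-like at 0.58, T cell-like at 0.53 and nonclassical monocyte-like at 0.48. The alveolar and interstitial macrophage-like sums were also higher, within the same range. Without Ly6e, Ifi27l2a and Bst2 the sums were still higher in 13 of 13 classes, by 0.30 to 2.06. Between the ages different clusters held most cells of several classes: endothelial-like cells were mostly in cluster 20 at pnd7 and cluster 0 at pnd60, fibroblast-like cells in 21 and 4, type II epithelial-like cells in 15 and 2, and type I epithelial-like cells in 22 and 27. Of the 261 myofibroblast, smooth muscle or pericyte-like cells of air pnd7, 213 lay in cluster 18, which held 0 cells of the class at pnd60, where most lay in cluster 25. Erythroid-like cells were mostly in cluster 10 at pnd7 and 36 at pnd60. At air pnd7, cells of the erythroid and type I epithelial classes also carried type II epithelial marker counts (40184 and 76004 CPM, against 232453 in the type II epithelial-like class), whose part in the result was not tested.

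Ly6e was higher beyond counting error in 13 of 13 classes, from 40.7 to 255 CPM in fibroblast-like cells and from 182 to 1224 CPM in type II epithelial-like cells. Sp100 was higher in 10 of 13 and Stat2 in 9 of 13, with 0 lower. Ifi27l2a split, with 4 classes higher and 5 lower: it went from 40.2 to 320 CPM in fibroblast-like cells but from 689 to 363 in T cell-like cells. Rsad2 split too, with 2 higher and 3 lower of 11. The summed gamma-type members were higher in 9 of 13 classes, among them classical monocyte-like (1.75), endothelial-like (1.63) and T cell-like cells (1.28). They were lower in interstitial macrophage-like cells (-1.09, -1.62 to -0.58), where Gbp7 went from 219 to 89.8 CPM, and their interval held 0 in fibroblast-like cells (-0.13, -0.31 to 0.04). After hyperoxia the type I sums were higher in 10 of 10 classes (0.43 to 2.99) and the gamma-type sums in 8 of 10.

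**Figure D3:**
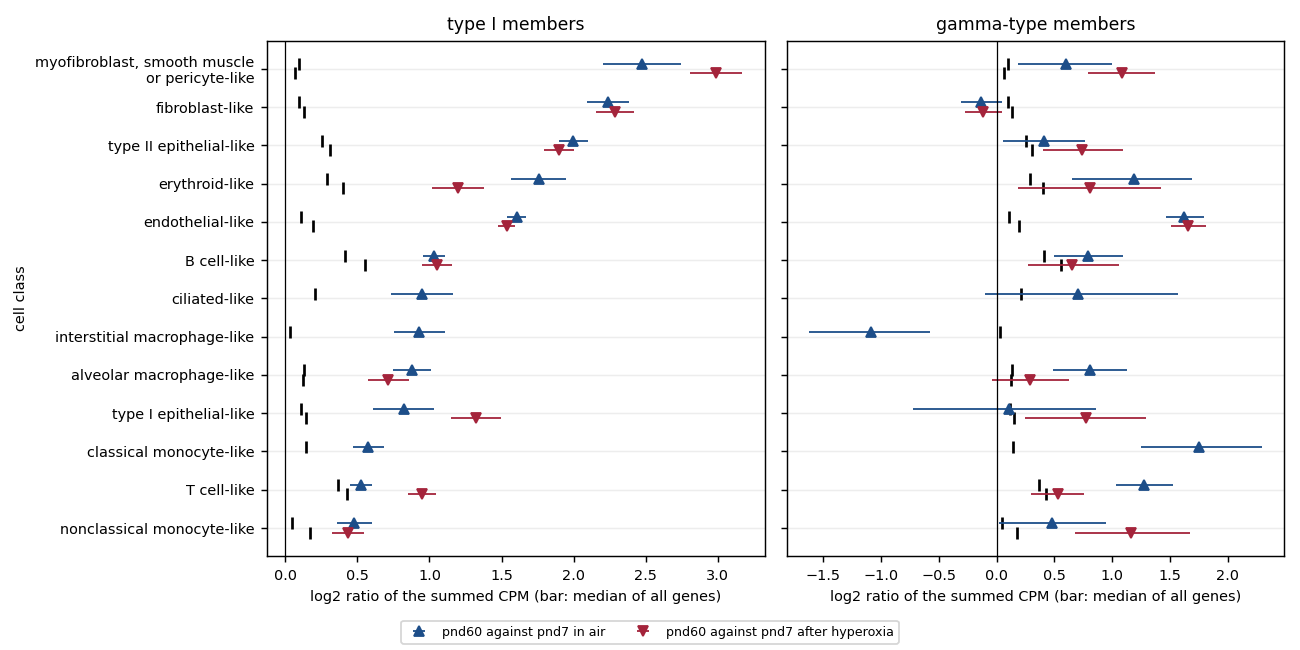
Log2 ratio of summed CPM, pnd60 against pnd7, within each cell class for type I (left) and gamma-type members (right), in air and after hyperoxia, with counting intervals and a black bar for the median of all genes. In air, type I ratios run from 0.48 to 2.47, with the myofibroblast, smooth muscle or pericyte-like cells highest, while gamma-type ratios run from -1.09 to 1.75.

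At pnd7, 4 days after the exposure had ended, the type I members did not separate hyperoxia from air. Of 24 compared, 0 passed 2-fold in either direction, where 0.183% of all 12591 genes were called higher and 0.802% lower. Their median log2 ratio was 0.06 (-0.23 to 0.32), the summed list differed by 0.03 (-0.01 to 0.06), and all genes had a median of -0.02. Isg15 was higher by 0.60 (0.33 to 0.87), Rtp4 by 0.47, Bst2 by 0.40 and Ly6e by 0.06, whereas Zbp1, a sensor of left-handed nucleic acid, differed by -0.41, Trim30a by -0.39, Sp100 by -0.23 and Ifi27l2a by -0.21. These 8 were the only type I members whose counting interval left out 0. Of 7 gamma-type members compared, Cxcl10 was called higher, from 25 to 77 counts (1.92, 1.25 to 2.63, or 3.78-fold). Irgm1 (0.34), Iigp1 (0.23) and Irf1 (0.21) were above 0 beyond counting error, and the median was 0.21 (0.05 to 0.37). Of the members under 100 counts, Gbp5 had 43 counts against 30 (0.81, 0.11 to 1.54). The intervals of Ifi44 (0.65), Oas1a (0.68) and Mx1 (-1.03), also under 100 counts, held 0.

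The 77 Cxcl10 counts of the hyperoxia library lay in 13 cells. A single cell of an unnamed cluster, led by Cd163l1, Cxcr6 and Il7r, held 34 of them (44.2%), a type I epithelial-like cell held 19 and an interstitial macrophage-like cell 9. Without the 2 cells of each library with the most counts the ratio was 0.97, under 2-fold. Isg15 and Rsad2 were also concentrated in few cells, an observation made after their values were seen. In the hyperoxia pnd7 library 7 cells with at least 5 counts of each held 77 of the 256 Isg15 counts (30.1%) and 72 of the 125 Rsad2 counts (57.6%), and the air pnd7 library had 0 such cells. The 7 cells fell in 5 classes: 3 were erythroid-like, and 1 each was B cell-like, type II epithelial-like, T cell-like and club-like. They held 0 Ifit2 and 0 Ifit3 counts and 7 Ifit1 counts. Their median depth was 14039 counts, against 7119.5 in the library and 3915 in the air pnd7 library. A limit of 5 counts is harder to reach at lower depth, and the part of depth in this difference was not tested. None of the 7 cells was called a doublet.

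At pnd60 the adult lungs after neonatal hyperoxia had levels near those in air. Of 27 type I members compared, Oas1a alone was called higher, from 29 to 83 counts (1.35, 0.73 to 2.01), where 0.271% of all 12928 genes were called higher and 0.248% lower. Its counts were spread over 76 cells with at most 2 each, 21 of them in classical monocyte-like, 15 in endothelial-like and 13 in nonclassical monocyte-like cells. Ifit1 (0.59, 0.32 to 0.86), Ifit3 (0.38), Irf7 (0.24) and Ifi27l2a (0.20) were also above 0 beyond counting error, and 0 members were below it. The median was 0.10 (-0.07 to 0.30), beside 0.01 over all genes. Of 8 gamma-type members, 0 passed 2-fold and 0 had an interval that left out 0, with a median of 0.09 (-0.12 to 0.22).

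Part of the Ifit difference lay in 1 cell. A type I epithelial-like cell with 5907 counts held 26 of the 308 Ifit1 counts at hyperoxia pnd60, 27 of 405 Ifit3, 31 of 195 Rsad2, 18 of 402 Isg15 and 18 of 348 Ifit2. The summed type I members of type I epithelial-like cells were at 1740 CPM after hyperoxia and 1064 in air (0.71, 0.50 to 0.93), and at 0.30 (0.06 to 0.55) without the highest cell of each library. Within classes at pnd60, 5 of 17 had type I sums higher and 3 lower beyond counting error. The largest was in myofibroblast, smooth muscle or pericyte-like cells, at 2077 against 875 CPM (1.25, and 1.21 without the highest cells). The endothelial markers of that class were at 6353 CPM after hyperoxia and 2193 in air, and their part in the result was not tested. Neutrophil-like cells were at 4630 against 3443 CPM (0.43). At pnd7, 4 of 10 classes were higher, among them the myofibroblast, smooth muscle or pericyte-like (0.74) and erythroid-like cells (0.56). In air and hyperoxia the former had 213 and 82 cells in cluster 18 and 48 and 50 in cluster 25. The erythroid-like class had 336 and 71 cells in cluster 10 and 15 and 20 in cluster 36. The part of these clusters in the ratios was not tested. T cell-like cells were lower (-0.43), with Ifi27l2a at 313 CPM against 689 in air. The summed gamma-type members were higher in 3 of 10 classes at pnd7 and in 3 of 17 at pnd60, with 0 and 1 lower. Among the former were T cell-like cells (0.76, and 0.54, 0.22 to 0.86, without the highest cells), where 1 cell held 41 of 204 counts after hyperoxia. In type I epithelial-like cells at pnd7 the gamma-type sums differed by 0.54, and by -0.27 without the highest cells. Of that class 205 of 223 air cells lay in cluster 22 and 34 of the hyperoxia cells in cluster 27.

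In the sorted library most members were lower than in unsorted hyperoxia cells of the same age, and Cxcl9 and Cxcl10 were higher. Of 20 type I members compared, 0 were called higher and 11 lower, where 8.17% of all 11340 genes were called higher and 36.4% lower. Their median was -1.18 (-1.47 to -0.73), beside -0.55 over all genes. The 8 with the largest differences were Ifit2 (-4.78, -6.67 to -3.40), Oasl2 (-3.58), Rtp4 (-2.88), Rsad2 (-2.72), Xaf1 (-2.35), Sp100 (-2.12), Irf9 (-1.59) and Irf7 (-1.44), followed by Ddx58 (-1.41), Ly6e (-1.27) and Ifih1 (-1.10). Trim30a was the only one of the 20 whose ratio was above 0, at 0.24 (-0.03 to 0.51). With the median of all genes put at 0, 7 members were lower, against 25.9% of all genes. Of the type I members under 100 counts, Oas1a had 48 counts in the sorted cells and 17 in the unsorted ones (2.28, 1.46 to 3.17). Lower in the sorted cells were Ifit1 (0.888 against 3.98 CPM), Ifit3 (0.888 against 5.38), Usp18 (0.508 against 3.83), Ifi44 (0.127 against 3.02) and Dhx58 (2.54 against 4.35). Mx1 was at 0.634 against 0.589 CPM.

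Of 8 gamma-type members compared, Cxcl9 (184 counts against 1, at 8.31, 5.81 to 13.6) and Cxcl10 (3.15, 2.79 to 3.52, or 8.86-fold) were called higher. Iigp1 (-4.96), Gbp7 (-2.10), Irgm1 (-1.94) and Gbp3 (-1.32) were lower, and Irf1 (0.26) and Gbp2 (0.10) were near the unsorted level. Of all 11340 genes, 8.17% were called higher and 36.4% lower. The median was -0.61 (-1.14 to -0.11), near the -0.55 over all genes, and the summed list differed by -0.41 (-0.50 to -0.31). With the rescaling 2 were higher and 3 lower, against 16.0% and 25.9% of all genes.

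**Figure D4:**
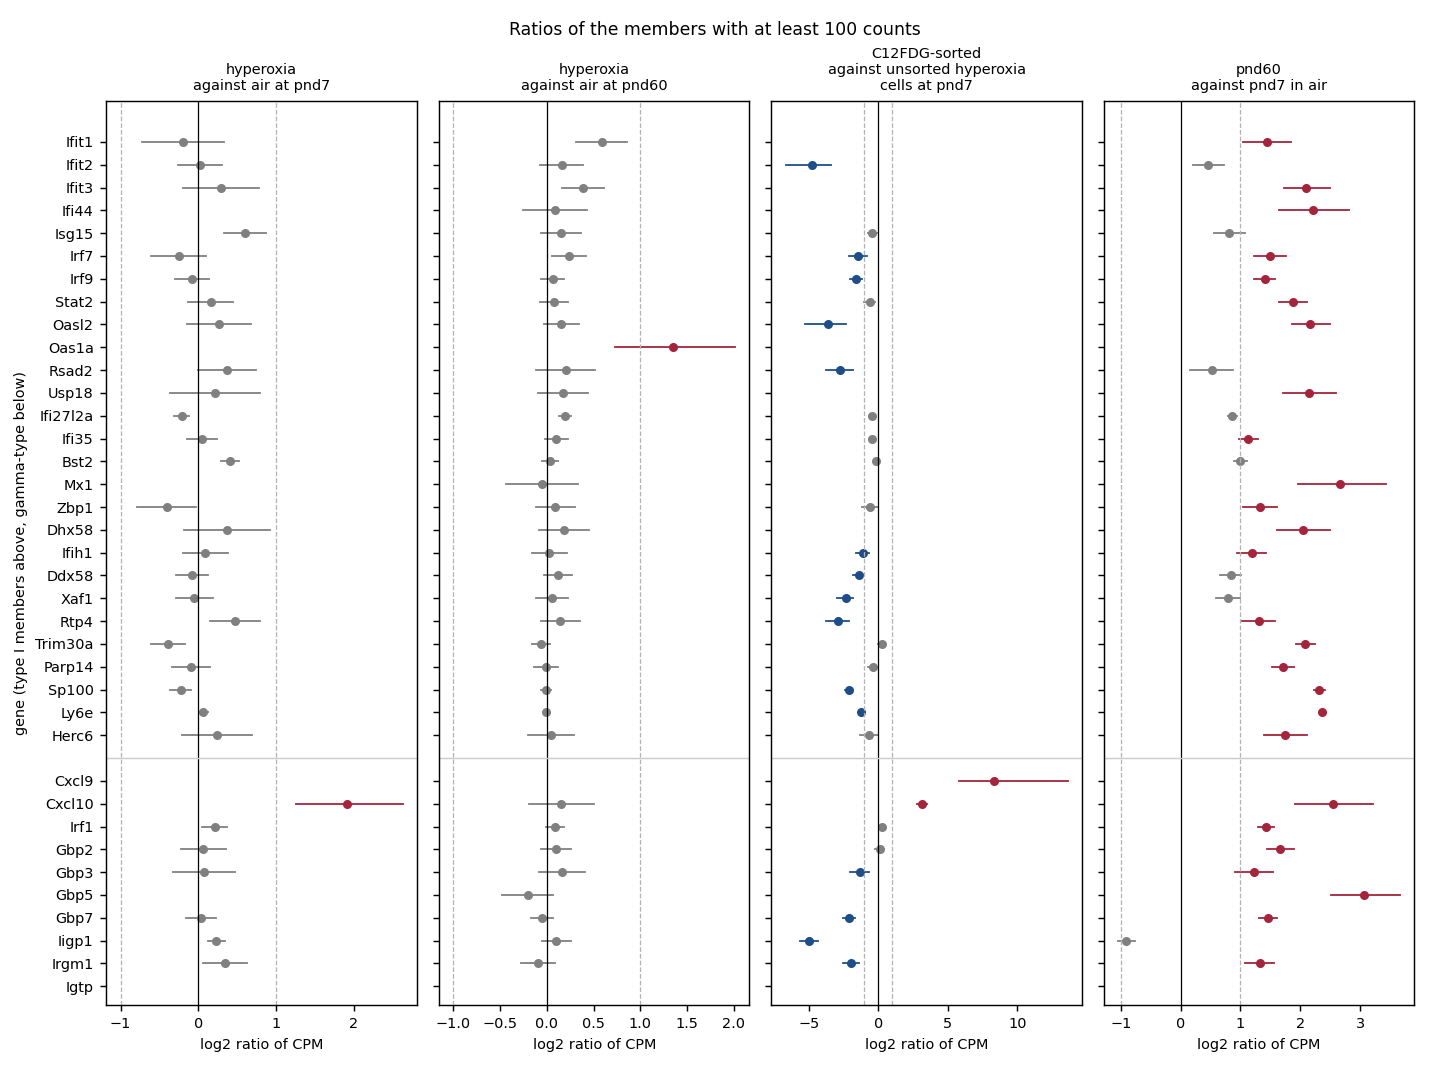
Log2 ratio of CPM of each member with at least 100 counts in 4 comparisons, with counting intervals, dashed lines at 2-fold and colour for called members. Of the type I members, 19 of 26 are higher with age in air, 0 of 24 and 1 of 27 with hyperoxia at pnd7 and pnd60, and 11 of 20 are lower in C12FDG-sorted cells, where Cxcl9 stands at 8.31 and Cxcl10 at 3.15.

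The sort changed the mix of cells, so macrophage-like cells alone were also compared, 461 sorted and 82 unsorted. The summed type I members were at 452 CPM in sorted and 831 in unsorted macrophage-like cells, and the median of 17 members with at least 30 counts was -1.03 (-1.57 to -0.21), beside -0.35 over 9550 genes. Ly6e was at 136 against 278 CPM, Sp100 at 13.2 against 51.1 and Ifih1, the RNA sensor Mda5, at 6.08 against 25.5. Dhx58, a regulator of such sensors, had 19 counts in sorted and 20 in unsorted cells (-2.78). Isg15 was at 14.3 against 4.40 CPM, from 106 and 5 counts (1.70, 0.43 to 3.35), but 3 sorted cells held 61 of the 106. These were an alveolar macrophage-like cell with 24 and 2 interstitial macrophage-like cells with 20 and 17, and without them Isg15 was at 6.13 CPM (0.48, -0.85 to 2.17). Oas1a was at 6.35 against 5.28 CPM (0.27, -0.96 to 1.78). Ifi27l2a was higher in alveolar macrophage-like cells alone (65.3 against 25.7 CPM, 1.35, 0.74 to 2.02). It was lower in interstitial macrophage-like cells (197 against 384 CPM, -0.96, -1.35 to -0.57) and in both classes together (78.1 against 101 CPM, -0.37, -0.67 to -0.07). In the gamma-type list Gbp7 was at 6.76 against 63.4 CPM and Gbp3 at 2.84 against 11.4, whereas Cxcl10 was at 48.4 against 9.69 and Irf1 at 52.6 against 29.1. Their sums were 156 and 154 CPM, and the median of 7 members was -0.47 (-1.13 to 0.24). The gamma-type sums of the 2 macrophage-like classes went opposite ways, while the type I sums were lower in both (-0.62 alveolar and -0.70 interstitial). The gamma-type sum of alveolar macrophage-like cells was 71.1 CPM in sorted and 124 in unsorted cells (-0.80, -1.10 to -0.49), and that of interstitial macrophage-like cells was 941 against 267 CPM (1.82, 1.44 to 2.21, from 46 and 19 cells), or 652 without the 2 sorted cells that held most Cxcl9 (1.29, 0.91 to 1.69). Cxcl10 and Cxcl9 held 301 and 183 counts of that sorted interstitial sum, or 418 and 254 of its 941 CPM. These 2 chemokines thus made up most of it, and 148 of the Cxcl10 counts lay in 1 cell. The value without the Cxcl9 cells still holds all 301 Cxcl10 counts. Among single members, Cxcl10 was higher in alveolar (1.93, 0.02 to 5.02, from 57 and 2 counts) and in interstitial macrophage-like cells (3.48, 2.53 to 4.62, from 301 and 9 counts). One sorted alveolar macrophage-like cell held 23 of the 57, and 1 unsorted interstitial macrophage-like cell held all 9. Gbp7 was lower in both classes (-2.93 alveolar and -3.76 interstitial). Irf1 was at 0.55 (-0.04 to 1.20) and 2.27. Gbp2 was at 8.08 against 22.3 CPM in alveolar macrophage-like cells (-1.47, -2.23 to -0.65). In interstitial macrophage-like cells it was at 75.1 against 12.5 CPM (2.58, 0.96 to 4.90), from 54 sorted and only 3 unsorted counts. Without the 2 sorted cells that held most Cxcl9, 16 sorted counts of Gbp2 were left, at 23.4 CPM, so its direction in that class rests on few cells and counts. Different clusters held most alveolar macrophage-like cells of the libraries, cluster 12 in the sorted and clusters 7 and 29 in the unsorted one.

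The chemokine counts came from few sorted cells. Of the 184 Cxcl9 counts, 110 and 73 lay in 2 interstitial macrophage-like cells, and the last lay in an alveolar macrophage-like cell. These 2 cells had 19044 and 16313 counts in all, 17 and 20 of Isg15, 21 and 17 of Gbp2, and 0 of Cxcl10. Cxcl10 had 396 counts in 31 cells. Of these, 10 interstitial macrophage-like cells held 301, 1 of them 148, and 15 alveolar macrophage-like cells held 57. So Cxcl9 and Cxcl10, neighbours on chromosome 5, were highest in different cells. Interstitial macrophage-like cells had the higher level of 9 of the 9 gamma-type members with counts, 5 beyond counting error, and of 18 of 26 type I members, 11 beyond counting error. Without the 2 Cxcl9 cells these counts were 7 of 9 with 4 beyond counting error, and 14 of 26 with 6. Gbp7 and Zbp1 were then below the alveolar macrophage-like level, at 4.39 against 6.59 CPM and 2.92 against 3.29 CPM. Without the 2 Cxcl9 cells, Isg15 in the other 44 was at 23.4 CPM (73.7 with them) and Gbp2 at 23.4 (75.1 with them), while Irf1 was at 165 (161 with them) and Cxcl10 at 440 (418 with them). In the adult libraries Cxcl10 was a monocyte transcript: 27 classical monocyte-like cells held 97 of 129 counts in air and 37 held 126 of 161 after hyperoxia, where the 23 such cells of air pnd7 held 0 (at most 21.2 CPM).

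**Figure D5:**
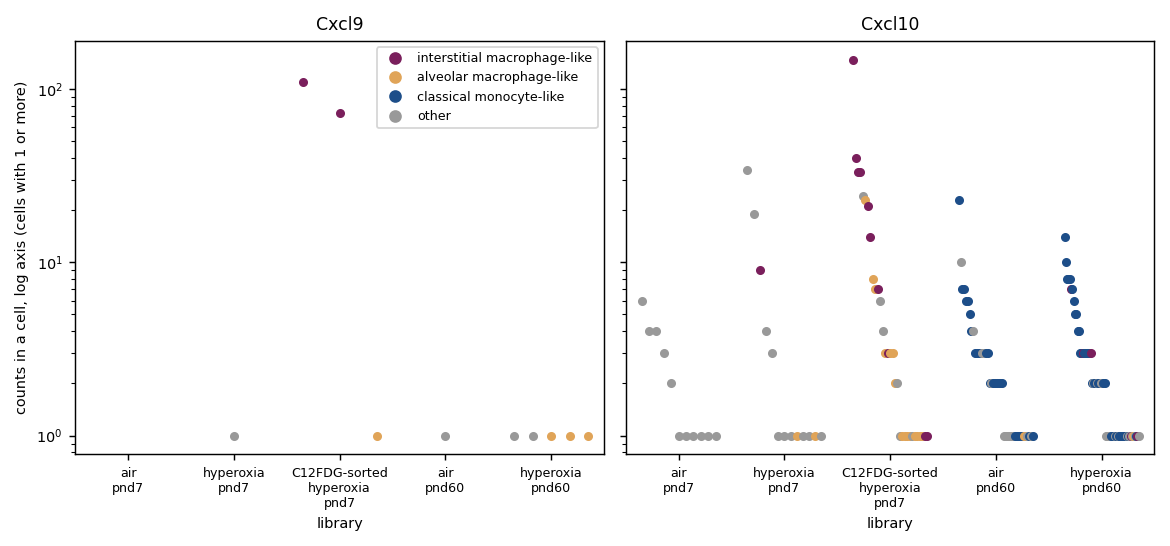
Counts of Cxcl9 (left) and Cxcl10 (right) in each cell with 1 or more, on a log axis, by library and cell class. In the sorted library 2 interstitial macrophage-like cells hold 110 and 73 Cxcl9 counts and 1 holds 148 Cxcl10 counts, and at pnd60 Cxcl10 lies mostly in classical monocyte-like cells.

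The rest of the pathway was read from fixed lists. Of 21 interferon genes, Ifng alone reached 100 counts in any comparison: it had 28, 43, 0, 82 and 133 counts from air pnd7 to hyperoxia pnd60. Natural killer cell-like cells held it at 152 CPM at air pnd60 and 205 after hyperoxia, and T cell-like cells at 24.2 CPM at air pnd7 and 61.5 at hyperoxia pnd7. Ifng was higher with age in air (1.73, 1.09 to 2.40). No Ifna gene had a count in any library, and Ifnb1 had 0, 0, 0, 1 and 2 counts. Of the receptor and kinase genes, 0 of 8 compared passed 2-fold between hyperoxia and air at pnd7, 0 of 9 at pnd60 and 0 of 8 in the sorted cells. Of all genes, 0.183% were called higher and 0.802% lower at pnd7, 0.271% and 0.248% at pnd60, and 8.17% and 36.4% in the sorted cells. Ifnlr1, under the minimum of counts there, had 5 counts in sorted and 47 in unsorted cells (-2.45, -4.14 to -1.12). With age 4 of 9 were called higher, where 15.1% of all genes were: Tyk2 (1.41), Ifnlr1 (1.28), Jak2 (1.25) and Jak1 (1.07). Ifnar1 differed by 0.53 and Ifngr1 by 0.83 with age. In sorted against unsorted cells Ifngr1 was at -0.67 and Ifngr2 at 0.78.

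Of 12 nucleic acid sensors and adaptors compared, 4 were called higher in the sorted cells (8.17% of all genes), Tlr7 (2.59), Tlr8 (2.27), Cgas (1.19) and Tbk1 (1.07), and Tlr3 was lower (-1.65), as 36.4% of all genes were. For this and the other fixed lists the ratios of every comparison are of whole libraries, so a changed mix of cells enters them. B cell-like cells, for example, were 5.16% of cells at air pnd7 and 28.4% at air pnd60. The part of the mix was not tested. With age 4 of the 12 were higher (15.1% of all genes), Tmem173 (Sting, 1.67), Tlr3 (1.66), Ikbke (1.15) and Myd88 (1.06). With hyperoxia 0 were called at either age. Of all genes, 0.183% were called higher and 0.802% lower at pnd7, and 0.271% and 0.248% at pnd60. Of 76 other interferon-response genes found, 43 of 59 compared were higher with age and 1 was lower, Ifitm1 (-1.23), beside 15.1% and 9.35% of all genes, with Nlrc5, an activator of MHC class I genes, at 3.23 and Ciita, its class II counterpart, at 2.90. At pnd7 0 of 55 were called with hyperoxia, beside 0.183% of all genes higher and 0.802% lower. At pnd60 Slfn2 (1.11) and Ifitm6 (1.02) of 64 were higher and 0 lower, beside 0.271% and 0.248% of all genes. In the sorted cells, where 8.17% of all genes were called higher and 36.4% lower, 5 of 46 were higher, Slfn2 (3.89), Ifi207 (3.51), Cd274 (2.56), Trim25 (1.45) and Ifi204 (1.005), and 20 were lower, the furthest being Ifitm1 (-6.33), Gbp4 (-5.32), Ciita (-4.53), Ifi209 (-3.74) and Gbp9 (-2.83).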

How the data were processed

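Lung cells of 5 libraries were profiled by droplet single-cell RNA sequencing (10x, 3′ ends). The authors deposited raw counts of molecules per gene and barcode, made with Cell Ranger (3.1.0 per the file headers). The submitters' processing notes also name mm10 and Seurat 3.2.1. The members and all gene lists were chosen with earlier results of these data known. No columns of other samples were used.

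Barcodes were kept if they had between 700 and 8000 detected genes and less than 5% of their counts in mitochondrial genes (2 ribosomal RNA genes). Counts were summed per library, or per library and class, and divided by the total to give CPM. Intervals were exact Poisson for levels and Clopper-Pearson for log2 ratios. Tools were Python 3.11.15, scanpy 1.11.5, scipy 1.17.1 and leidenalg 0.10.2. Ratios required at least 100 counts in both libraries together (30 within classes), classes needed 20 cells, and a library at 0 counts was set to 3. The ratio step was tested on simulated data.

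Clusters came from 3000 variable genes (without the members, the other interferon-response genes and erythroid markers), 50 components and Leiden at a resolution of 2, with no integration. Integration was left to an alternative because many sorted macrophages fell in clusters without a name on the integrated data. A name needed at least 3 raised markers of 1 of 21 marker lists. The thresholds for naming were set after the clusters were seen. Scrublet called 0.0433% to 3.01% of cells doublets, under 0.5% in the 3 pnd7 libraries, and they were kept in the reported values.

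Members past 2-fold were named, up to the 8 largest in each direction, then those with the most counts, and up to 5 genes per direction from the other lists. In all, 20 kinds of alternative processing were planned. Leaving out the 2 cells with most counts of a gene, the highest cell of a class, the 2 Cxcl9 cells or the 3 cells with most Isg15, and the use of the hyperoxia libraries for the age comparison, were added after the data were seen. The values of 1 gene of the other lists are not reported here.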

Additional observations from a re-analysis of the deposited data

Results flagged for a closer look

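Ifi27l2a differed in opposite directions between hyperoxia and air at the 2 ages, by -0.21 on the log2 scale at pnd7 (104 against 120 CPM) and by 0.20 at pnd60 (251 against 219 CPM). Inside single cell classes, Ifi27l2a was higher beyond counting error in 3 of 10 and lower in 3 of 10 at pnd7. At pnd60 it was higher in 3 of 17 and lower in 3 of 17. Each age had 1 library per exposure, and the difference between the ages was not tested.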

How the results depend on the processing

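No paired analysis was possible because there was only 1 library per group, which also left no replicate to leave out. Values are medians of log2 ratios unless named otherwise, and for those given here the cause of a shift was not tested. Of the alternatives to the list medians and call counts, 109 stayed within the medians of the members' counting limits or within 1.5 times the count. A further 24 moved and 1 reversed. The reversal was that of the gamma-type members in sorted against unsorted cells, at 0.036 with all deposited barcodes. Their median moved to -0.063 with the median of all genes put at 0, to -1.32 with a minimum of 30 or of 4 counts, to -1.17 without the 10 highest cells and to -1.55 with equal weight per class, where only alveolar macrophage-like cells entered. The type I members of the same comparison moved to -0.64 with the rescaling and -0.72 with all barcodes. With age in air, the type I median moved to 2.03 with all barcodes, 0.90 with equal class weight and 1.86 for summed counts. The gamma-type median moved to 1.21 with the rescaling, 2.12 with all barcodes, 1.90 for mean CPM per cell, 2.14 with thinning to 1000 counts, 1.07 with equal class weight and 0.90 for summed counts. In macrophage-like cells the gamma-type median was 0.44 with Seurat classes (SCTransform and integration), where 253 sorted and 123 unsorted cells entered. It was -1.47 for alveolar and 2.58 for interstitial cells alone, each the middle of 5 members and the value of Gbp2. For mean CPM per cell it was -1.49, and with at least 100 counts 0.86. Between hyperoxia and air at pnd7 the gamma-type median was 0.62 with thinning. With a 1.5-fold limit 2 members were called at pnd7 and 2 at pnd60, in place of 1 each, where 4.84% and 1.97% of all genes passed that limit. Among single members, Irf7 in sorted cells reversed to 0.10 with equal class weight. Only alveolar macrophage-like cells entered there, with 8 counts of Irf7 in sorted and 1 in unsorted cells (interval -2.80 to 5.57). Cxcl10 between hyperoxia and air at pnd7 ranged from 0.69 without the 10 highest cells to 4.06 with thinning, and Oas1a at pnd60 from 1.31 to 1.71. Thinning left Ifit2 in sorted cells at -0.78 and Cxcl9 at 2.92. Thinned libraries hold few counts of a rare gene, and 0 counts were set to 3 there too, but the part of either was not tested. Members with few counts are limited by depth.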
